A study of Mus musculus with 14 samples.

Results

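The constitutive proteasome genes of the mouse spleen were taken by symbol, as every entry beginning with Psma, Psmb, Psmc or Psmd and a number, without the interferon-induced catalytic genes Psmb8, Psmb9 and Psmb10. They were 37 of 22116 named entries. Of these, 16 belonged to the core particle by name (Psma, Psmb) and 21 to the regulatory particle (Psmc, Psmd). The names hold some genes that are not subunits of the standard particle: Psmc3ip, a meiotic recombination factor named for binding Psmc3; Psmd5, Psmd9 and Psmd10, chaperones that leave the base of the regulatory particle once it is built; Psma8, a testis form of an alpha subunit; and Psmb11, a form of the cortical thymic epithelium. Without them, 31 subunits of the assembled particle remained, 14 of the core and 17 of the regulatory particle.

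The proteasome degrades proteins that carry ubiquitin chains. Its core particle is a barrel of stacked rings of alpha and beta subunits, and the beta subunits encoded by Psmb5, Psmb6 and Psmb7 hold the chymotrypsin-like, caspase-like and trypsin-like sites inside it. The regulatory particle caps the barrel: its ATPases (Psmc) unfold the substrate and thread it in, while the non-ATPase subunits (Psmd) bind ubiquitin, remove it and hold the cap together. Immune cells, which fill the spleen, can replace the 3 catalytic subunits by the interferon-induced Psmb8, Psmb9 and Psmb10.

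Poly(A) RNA of whole spleens from 14 wild-type female BALB/c mice aged 6 to 8 weeks was sequenced. The 3 control mice received the petrolatum vehicle on their backs and on their ears. A cream with 5% imiquimod, an agonist of Toll-like receptor 7 used to set off psoriasis-like skin inflammation, was put daily for 5 days on the back of 4 mice (imiquimod-dorsal) or on the ear of another 4 (imiquimod-ear). The last 3 mice (IL-23-ear) had recombinant mouse IL-23, a cytokine of the same kind of inflammation, given intradermally at 1 µg for each ear, in 4 injections spread over 7 days. The labels do not give the amount of cream or the area treated, and the IL-23 mice had injections where the controls had petrolatum. The series' design text calls the controls untreated, whereas the treatment labels say vehicle. The mice are called biological replicates, so p-values measure the spread between these mice.

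Libraries held 28354674 to 40289411 counts in named genes. Expression is given as CPM, the count of a gene scaled to a common library size after TMM normalisation. Of the 37 genes, 36 had enough counts to be tested. Psmb11 had 0 to 2 counts in every library, at or under the limit of 3 counts that a count of 0 allows. Psma8 was tested with only 21 to 65 counts per library. The 31 assembled-particle subunits had 962 to 11587 counts in each library, so counting error was small for them. Together the 37 genes took 0.338% to 0.415% of a control library's counts. Dorsal imiquimod libraries gave them 0.455% to 0.492%, ear imiquimod libraries 0.381% to 0.483% and IL-23 libraries 0.366% to 0.394%. Control 5 stood above the other 2 controls in this share and imiquimod-ear 5 below the other 3 libraries of its group.

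Divided by the length of the canonical transcript, the levels of the 31 subunits in control spleens spanned 9.39-fold between the highest and the lowest. The order ran from Psmb4, a beta subunit, at 139.0 ± 13.1 CPM per kb (SD, n = 3) and Psma7, an alpha subunit, at 134.0 ± 16.6 to Psmb5, at 18.0 to 23.8 in the 3 libraries, and Psmb2, another beta subunit, at 14.8 ± 2.27. Neighbours in this order mostly overlapped: the ranges of the 3 control libraries were apart for 2 of 30 neighbouring pairs. The 10 highest held 7 core genes and the 10 lowest 5 regulatory genes; the lowest of all, Psma2, Psmb1, Psma3, Psmb5 and Psmb2, were core genes. The median was 71.0 CPM per kb in the core and 48.1 in the regulatory particle. These levels between genes rest on 1 transcript per gene, and the length chosen moves them.

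**Figure D1:**
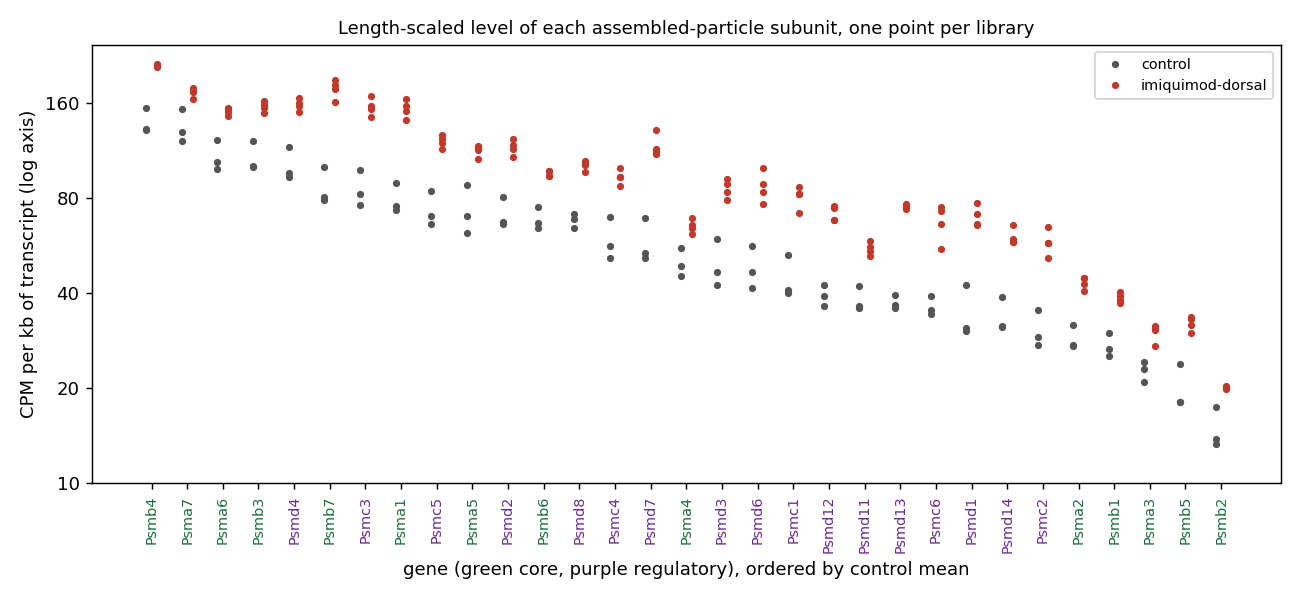
Level of each assembled-particle subunit in CPM per kb of canonical transcript on a log axis, with 1 point per library for the control and imiquimod-dorsal groups; genes run from the highest to the lowest control mean. The imiquimod-dorsal points lie above the control points for every gene, and the distance is larger for many regulatory genes (purple names) than for core genes (green names).

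Dorsal imiquimod came with higher RNA of nearly the whole set. In the comparison with control, 35 of the 36 tested genes rose and none fell, at an adjusted p under 0.05 in edgeR's quasi-likelihood test; over all 15159 genes tested, 32.3% rose. The median log2 fold change of the 36 was 0.69, a 1.62-fold higher level, where the median of all genes was 0.00. All 21 regulatory genes rose, with a median of 0.86 (1.82-fold), and 14 of 15 core genes rose, with a median of 0.54 (1.45-fold). The exception was Psma8, at 0.60 ± 0.34 (SE; adjusted p = 0.144). For the 35 genes that rose, every imiquimod-dorsal library lay above every control library, a separation upwards that 33.0% of all genes showed. In whole tissue, a change in the share of cells that express a gene and a change in its RNA per cell cannot be told apart.

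The 3 catalytic core genes all rose. Psmb7, on chromosome 2 at 38478048 to 38534099 (minus strand, GRCm39), was at 91.4, 93.5 and 116 CPM in the controls and at 187, 220, 206 and 212 CPM in the imiquimod-dorsal libraries. These groups were far apart, and its log2 fold change of 1.04 ± 0.12 (adjusted p = 8.52e-06) was the highest of the core. Psmb5 was at 30.6, 30.8 and 40.5 CPM in the controls and at 50.9, 57.2, 56.1 and 53.8 CPM after dorsal imiquimod, which gave 0.68 ± 0.12 (adjusted p = 0.000225). Control 5 was the highest control for both genes and still below the lowest treated library. For Psmb6 the controls were at 69.2, 66.4 and 77.8 CPM and the treated libraries at 96.9, 101, 97.5 and 101 CPM, which gave 0.48 ± 0.08 (adjusted p = 0.000262).

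Among the alpha subunits, which form the outer rings and the gate of the core, all 7 of 7 rose and the median was 0.48 on the log2 scale. Psma1 stood out at 100, 103 and 122 CPM in the controls against 193, 225, 215 and 206 CPM after dorsal imiquimod, which came to 0.95 ± 0.12 (adjusted p = 1.67e-05). The smallest changes of the whole set were also alpha genes. Psma7 went from 114, 122 and 144 CPM to 165, 164, 169 and 155 CPM, which was 0.37 ± 0.11 (adjusted p = 0.00944), and the lowest treated library was only just above the highest control. Psma4 changed by 0.38 ± 0.12 (adjusted p = 0.0121) and Psma3 by 0.41 ± 0.08 (adjusted p = 0.000951). Without control 2 or without control 4, Psma7 and Psma4 no longer passed the test. With 1 library left out their log2 fold changes went as low as 0.24 and 0.27, with adjusted p up to 0.0989 and 0.103 in edgeR's test. The beta subunits also rose in 7 of 7 cases, with a median of 0.54.

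The 6 ATPases moved together, between 0.66 (Psmc4) and 0.92 (Psmc2) on the log2 scale; their median was 0.87. The 11 non-ATPase subunits had a median of 0.83 and a wider range, from 0.54 (Psmd11, a lid subunit) to 1.02 (Psmd1, a large scaffold of the base). Psmd13, a lid subunit, was at 72.6, 71.3 and 78.4 CPM in the controls and at 148, 150, 152 and 147 CPM after dorsal imiquimod, which gave 1.01 ± 0.10 (adjusted p = 2.24e-06). Each group kept within a few CPM of its mean for this gene, so the groups were clearly separate. Psmd7, another lid subunit, changed by 1.01 ± 0.13 (adjusted p = 2.1e-05). Psmd4, a ubiquitin receptor, changed by 0.64 ± 0.08 (adjusted p = 1.27e-05) and Psmd14, the deubiquitinase of the lid, by 0.83 ± 0.12 (adjusted p = 4.76e-05).

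The 3 largest values belonged to genes with regulatory names that are no part of the finished particle. Psmd9, an assembly chaperone of the ATPase ring on chromosome 5 at 123366253 to 123388194 (plus strand), was at 21.3, 18.9 and 25.6 CPM in the controls and at 62.0, 65.5, 67.4 and 59.0 CPM after dorsal imiquimod. No library came between these groups, and the log2 fold change of 1.53 ± 0.13 (2.89-fold, adjusted p = 9.7e-07) had the smallest p of the 36. The chaperone Psmd5 changed by 1.13 ± 0.12 (adjusted p = 3.46e-06) and the chaperone Psmd10, also known as gankyrin, by 0.68 ± 0.07 (adjusted p = 3.44e-06). Psmc3ip, which acts in homologous recombination, went from 5.41 to 9.01 CPM in the controls to 18.4 to 23.5 CPM, or 1.69 ± 0.25 (adjusted p = 6.98e-05).

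**Figure D2:**
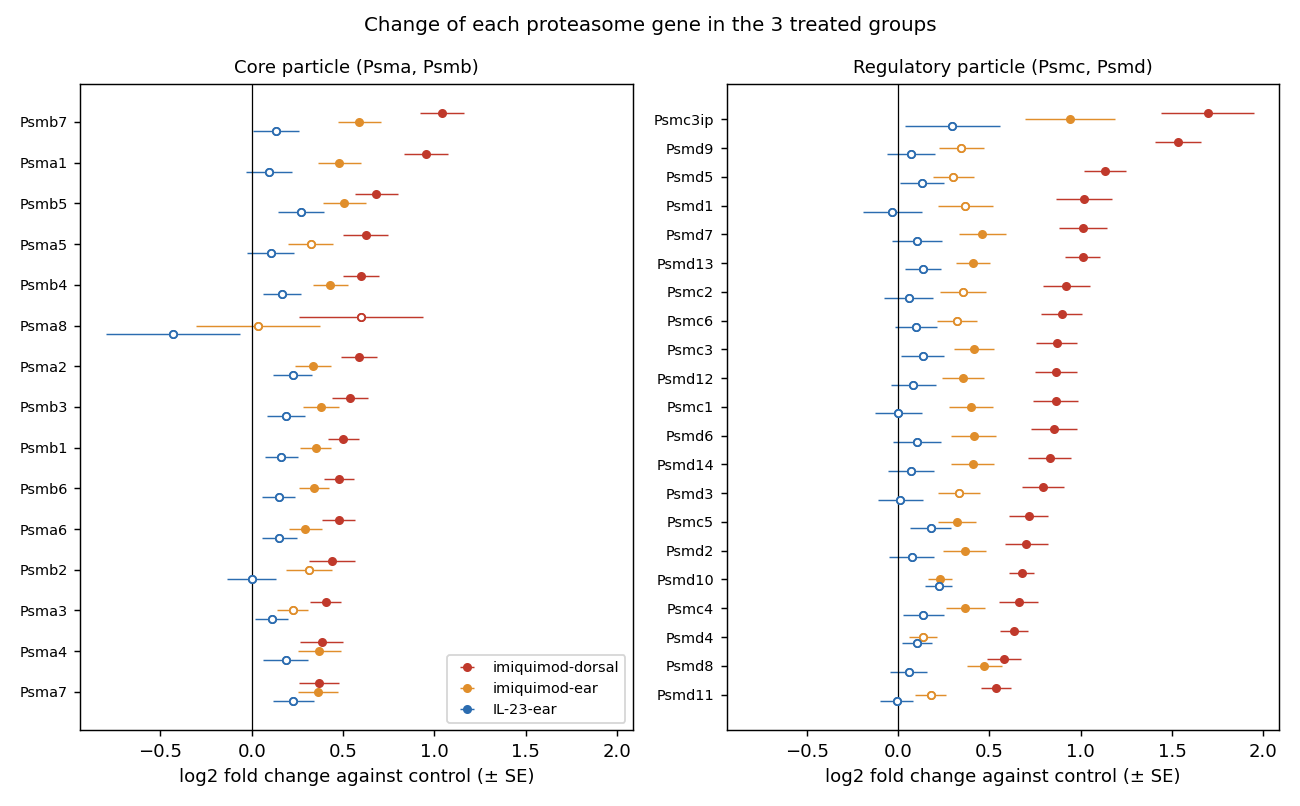
Log2 fold change (± SE) of each tested gene against control in the 3 treated groups, core genes on the left and regulatory genes on the right, each ordered by the imiquimod-dorsal value; filled points passed an adjusted p of 0.05 and open points did not. The imiquimod-dorsal points are all above 0 and reach further right among regulatory genes, the imiquimod-ear points lie between them and the IL-23-ear points near 0, all of which are open.

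The regulatory genes exceeded the core genes in the size of this change. Of the 17 regulatory subunits of the assembled particle, 17 had a log2 fold change above the median of the 14 core subunits (0.52), while only Psma1 and Psmb7 of the core exceeded the regulatory median (0.85). The contrast was also seen library by library, as the mean log2 CPM of the 15 core genes minus that of the 21 regulatory genes. Only differences in this value between libraries can be read, since the genes differ in length. It was -0.136, -0.079 and -0.119 in the controls and -0.399, -0.458, -0.408 and -0.473 in the imiquimod-dorsal libraries. The imiquimod-ear libraries were at -0.178, -0.143, -0.137 and -0.069 and the IL-23-ear libraries at -0.092, -0.111 and -0.076. All 4 imiquimod-dorsal libraries thus lay below all 10 others, and the other 3 groups overlapped. The group means differed from control by -0.324 after dorsal imiquimod, by -0.021 after ear imiquimod and by 0.018 after IL-23. No p-value is given for these means over chosen genes. With the 31 assembled-particle subunits alone the dorsal difference was -0.233, so the chaperones and Psmc3ip made up some of it. On that smaller set the differences were 0.02 for ear imiquimod, of opposite sign to that of all members, and 0.076 for IL-23, where the 3 IL-23-ear libraries (-0.033 to -0.001) lay above the 3 controls (-0.106 to -0.081). The core to regulatory ratio of summed CPM was 0.748 ± 0.0105 (SD, n = 3) in controls and 0.635 ± 0.0205 (n = 4) after dorsal imiquimod, with 0.761 ± 0.0112 (n = 4) after ear imiquimod and 0.788 ± 0.0119 (n = 3) after IL-23.

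**Figure D3:**
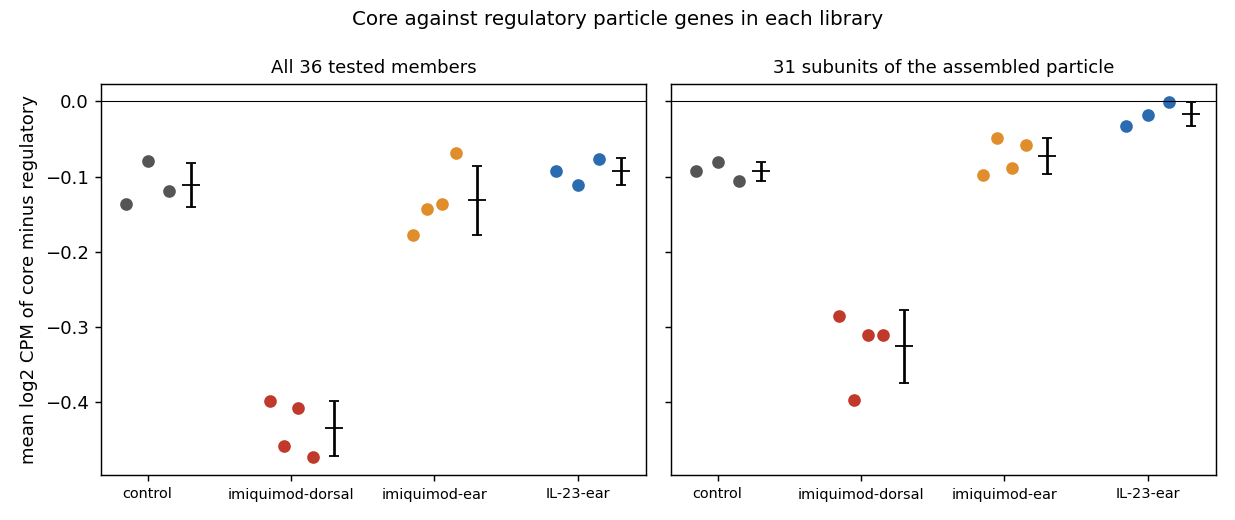
Mean log2 CPM of the core genes minus that of the regulatory genes, 1 point per library, with the mean and SD of each group beside the points; all 36 tested genes on the left and the 31 assembled-particle subunits on the right. In both panels the 4 imiquimod-dorsal libraries lie below every other library, between -0.473 and -0.399 on the left.

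Several marker lists of cell types and of division moved with the same comparison, while in others most genes did not pass. Over all 15159 genes tested, 32.3% rose after dorsal imiquimod. Summed over 15 erythroid genes, control libraries held 850 to 1010 CPM and those after dorsal imiquimod 11300 to 18200 CPM, while ear imiquimod gave 539 to 3630 and IL-23 168 to 752 CPM; 15 of 15 rose after dorsal imiquimod. Over 20 cell cycle genes the ranges were 910 to 1680, 7390 to 9520, 1630 to 4190 and 976 to 1300 CPM in the same order, with 20 of 20 higher after dorsal imiquimod. The 12 neutrophil genes all rose, from a sum of 87.2 to 161 CPM to 1350 to 2390 CPM after dorsal imiquimod. The 12 T cell genes all fell, from 1020 to 1480 CPM to 256 to 317 CPM, where 4181 of all 15159 genes fell. The 10 B cell genes summed to 4510 to 4710 CPM in the control and 3400 to 4100 CPM in the imiquimod-dorsal libraries. Of them 1 rose, 3 fell and 6 did not pass. The 10 genes of stroma and red pulp macrophages summed to 1860 to 2180 and 1210 to 1590 CPM. Here 1 rose, 2 fell and 7 did not pass. Of the 12 plasma cell genes 2 rose, 1 fell and 9 did not pass. The 9 genes of pancreas, a neighbouring organ, reached 12.9 to 391 CPM in the imiquimod-dorsal libraries against 9.82 to 13.2 CPM in the controls, where Cela3b was at 0 in every library. Their part in the changes of the proteasome genes was not tested.

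The promoters of core and regulatory genes were searched for 4 short motifs, as a description with no test. The RefSeq promoter table (build GRCm38.p6; 250 bases before to 50 after a start) held 32 promoters for 30 of the 37 genes. The motif CCGGAAG, a core of sites for ETS family factors, was searched on both strands, as were CCAAT (bound by NF-Y), TGACNNNGC (the core of the antioxidant response element, bound by Nfe2l1 and Nfe2l2) and AGATAA (bound by GATA factors); 0 matches of different motifs overlapped. CCGGAAG was in 11 of 19 regulatory promoters (57.9%, 10 of 18 genes), in 1 of 13 core promoters (7.69%, that of Psma6) and in 8.86% of all 32851 promoters. CCAAT was in 53.8% of core, 31.6% of regulatory and 37.4% of all promoters. TGACNNNGC was in 15.4%, 15.8% and 12.4%, and AGATAA in 0.0%, 10.5% and 11.2%. The median GC content was 56.7% in core, 60.3% in regulatory and 52.7% in all promoters. A match is a description of these letters, not a site in use. Psmd11 and Psmd12 held CCGGAAG close to the start, 11 to 5 and 17 to 11 bases before it, and are not printed. Psmd11 had the smallest dorsal change of the regulatory genes, at 0.54 on the log2 scale. Psmd9 had the smallest p of the regulatory genes after dorsal imiquimod, and Psma1 the second smallest of the core. Psmb5, at 0.68, lay above the core median of 0.54, and Psma7, at 0.37, had the smallest change of the core. The promoters below are those of 5 of the 10 regulatory genes with CCGGAAG, then of Psmd9, Psma1, Psmb5 and Psma7. Each runs from 100 bases before the start to 10 from it, 5′ to 3′ on the gene's strand, with matches of the 4 motifs on either strand in capitals; each sequence was found again once, unchanged, in GRCm39, whose coordinates follow the name.
Psmd13 (chr7:140462207-140462316, plus): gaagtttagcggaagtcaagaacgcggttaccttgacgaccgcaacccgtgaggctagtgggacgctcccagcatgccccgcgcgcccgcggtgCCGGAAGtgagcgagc
Psmd2 (chr16:20470302-20470411, plus): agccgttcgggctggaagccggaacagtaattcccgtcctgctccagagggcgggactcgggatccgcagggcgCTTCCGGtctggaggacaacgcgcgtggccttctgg
Psmd6 (chr14:8348718-8348827, plus): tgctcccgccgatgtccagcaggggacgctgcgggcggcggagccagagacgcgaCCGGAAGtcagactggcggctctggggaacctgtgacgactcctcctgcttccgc
Psmc1 (chr12:100076361-100076470, plus): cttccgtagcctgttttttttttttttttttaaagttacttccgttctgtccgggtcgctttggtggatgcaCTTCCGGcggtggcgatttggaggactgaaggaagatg
Psmc6 (chr14:45567181-45567290, plus): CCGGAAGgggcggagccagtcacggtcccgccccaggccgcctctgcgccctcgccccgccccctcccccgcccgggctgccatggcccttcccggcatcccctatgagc
Psmd9 (chr5:123366153-123366262, plus): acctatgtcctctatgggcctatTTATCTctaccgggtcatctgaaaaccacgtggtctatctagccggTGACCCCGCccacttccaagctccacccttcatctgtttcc
Psma1 (chr7:113875342-113875451, minus): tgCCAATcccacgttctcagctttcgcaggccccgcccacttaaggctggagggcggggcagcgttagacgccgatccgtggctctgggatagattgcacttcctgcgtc
Psmb5 (chr14:54855443-54855552, minus): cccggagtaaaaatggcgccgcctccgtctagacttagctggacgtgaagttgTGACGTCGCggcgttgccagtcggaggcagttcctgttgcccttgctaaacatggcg
Psma7 (chr2:179684248-179684357, minus): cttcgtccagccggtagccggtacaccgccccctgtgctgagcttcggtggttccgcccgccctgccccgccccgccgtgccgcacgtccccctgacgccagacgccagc
In the first 5 the match to CCGGAAG, or to its complement CTTCCGG, lies 6 to 0 bases before the start in Psmd13, 26 to 20 in Psmd2, 45 to 39 in Psmd6, 28 to 22 in Psmc1 and 100 to 94 in Psmc6, where 0 is the first base from the start. Psmd9 holds TTATCT, the complement of AGATAA, and a TGACNNNGC match; Psmb5 holds another TGACNNNGC match and Psma1 a CCAAT match, while further matches, such as the CCAAT of Psma7, lie outside the stretch shown. The 2 members with AGATAA were Psmc6 and Psmd9.

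Ear imiquimod came with a smaller rise, with medians near each other in both particles. Against control, 24 of 36 genes rose and none fell, where 14.3% of all genes rose. They were 11 of 15 core and 13 of 21 regulatory genes; the median log2 fold change was 0.35 in the core, 0.37 in the regulatory particle and 0.02 over all genes. All 36 values were above 0, from 0.04 (Psma8) to 0.94 (Psmc3ip). The libraries of the groups mostly overlapped. All imiquimod-ear libraries lay above all controls for 5 of the 36 genes, near the share of all genes (13.5%). Imiquimod-ear 5 was mostly the lowest of its group and control 5 mostly the highest control.

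Psmb7 was at 167, 172, 143 and 121 CPM in the imiquimod-ear libraries, just clear of the highest control at 116, with a log2 fold change of 0.59 ± 0.12 (adjusted p = 0.00553). Psmd8, a lid subunit, was at 106, 99.5 and 110 CPM in the controls and at 154, 165, 148 and 118 CPM, a change of 0.47 ± 0.10 (adjusted p = 0.00547). In both genes imiquimod-ear 5 was the lowest of its group, and the groups did not overlap. Psmb4 changed by 0.43 ± 0.10 (adjusted p = 0.00895) and Psmd13 by 0.41 ± 0.10 (adjusted p = 0.00972). The catalytic genes Psmb5 and Psmb6 changed by 0.51 ± 0.12 (adjusted p = 0.00975) and 0.34 ± 0.08 (adjusted p = 0.0127). The values of Psmd4 (0.14 ± 0.08, adjusted p = 0.223) and Psmd11 (0.18 ± 0.08, adjusted p = 0.145) did not pass, and neither did those of Psmd9 (0.34 ± 0.12, adjusted p = 0.0607) and Psmd5 (0.30 ± 0.11, adjusted p = 0.0717), named here after their values were seen because they led the dorsal comparison.

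The number of proteasome genes that passed rested on single libraries, and the number over all genes moved with it. It was 2 without control 2, 2 without control 4 and 28 without control 5. It was 7 without imiquimod-ear 1, 7 without imiquimod-ear 3, 12 without imiquimod-ear 4 and 33 without imiquimod-ear 5, and 13 without IL-23-ear 3, a library of neither group. With only the control and imiquimod-ear libraries in the fit it was 2. Over all genes, 817 of 15367 rose without control 2, 698 of 15383 without control 4 and 2723 of 15113 without imiquimod-ear 5. With only the control and imiquimod-ear libraries, 716 of 14836 rose. Only 2 of the 24 proteasome genes passed in every fit with 1 library left out. The marker sums also spread widely over the 4 imiquimod-ear libraries, and the sum of imiquimod-ear 5 alone is not given. The erythroid sum ran from 539 to 3630 CPM, around the 850 to 1010 CPM of the controls. The cell cycle sum ran from 1630 to 4190 CPM and overlapped the 910 to 1680 CPM of the controls. Of the 15 erythroid genes 0 passed. In the fit of all 14 libraries, 20 of 20 cell cycle and 12 of 12 plasma cell genes were higher than control, where 14.3% of all genes rose. The marker calls are not given with a library left out. Of 12 neutrophil genes 9 were higher, with sums of 195 to 792 CPM against 87.2 to 161 CPM in the controls. The plasma cell sum was 4130 to 6590 CPM, against 1800 to 2040 CPM in the controls and 1440 to 2170 CPM in the imiquimod-dorsal libraries. Their part in the proteasome values was not tested.

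**Figure D4:**
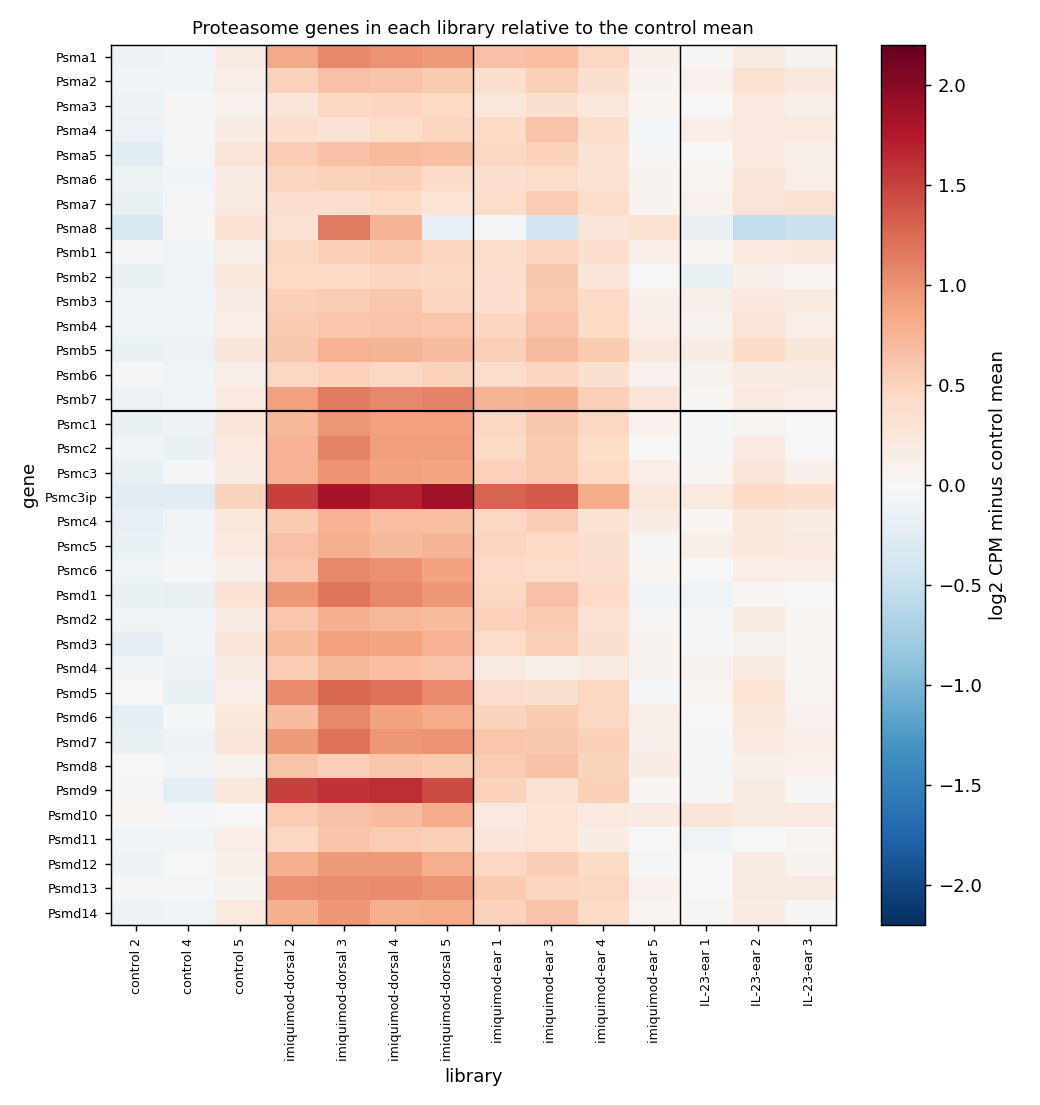
Log2 CPM of each tested gene (rows, core above the line and regulatory below) in each of the 14 libraries (columns), minus the mean of the 3 controls, with red above and blue below it. The 4 imiquimod-dorsal columns are red in nearly every row, most in Psmd9 and Psmc3ip, imiquimod-ear 5 is paler than the other 3 of its group, and control 5 is slightly red.

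After IL-23 none of the 36 genes passed edgeR's test, at a background of 0.0528% of all genes in either direction. The unadjusted p in edgeR's test was under 0.05 for 2 of them, beside 1305 of all 15159 genes. DESeq2 and limma-voom also called 0 of the 36. The median log2 fold change was 0.11, with 0.15 in the core and 0.10 in the regulatory particle, and 32 of 36 values were above 0. The median over all genes was 0.01. Psmb5 was at 37.8, 44.9 and 40.2 CPM, overlapping the controls through control 5, with a value of 0.27 ± 0.12 (adjusted p = 0.576). Psmb6 (0.15 ± 0.09, adjusted p = 0.709) and Psmb7 (0.13 ± 0.13, adjusted p = 0.826) lay nearer to the controls. The values closest to 0 were those of Psmb2, a beta subunit at 53.5, 63.9 and 61.2 CPM overlapping the controls, and of the ATPase gene Psmc1 and the lid gene Psmd11, at 0.00 ± 0.13 and -0.01 ± 0.09. Psmd10 was the 1 gene whose IL-23-ear libraries (35.8 to 37.7 CPM) all lay above the controls (30.5 to 32.1 CPM), at 0.22 ± 0.07 (adjusted p = 0.401); 9.75% of all genes were separated upwards in this way. A miss of the threshold with 3 mice a group does not show that the levels were alike.

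The imiquimod groups were also set against each other. From dorsal to ear imiquimod, 24 of 36 genes fell, where 24.5% of all genes fell; the libraries of the groups did not overlap for 24 genes, beside 23.1% of all genes. Among them were 20 of 21 regulatory genes, with a median log2 difference of -0.46, and 4 of 15 core genes (Psma1, Psma2, Psma5 and Psmb7), with a core median of -0.17. Psmd8 was the regulatory gene that did not pass, at -0.11 ± 0.09 (adjusted p = 0.33). Psmd9 was at 30.8, 26.9, 31.3 and 22.4 CPM in the imiquimod-ear libraries, all below the 59.0 CPM of the lowest imiquimod-dorsal library, a difference of -1.19 ± 0.11 (adjusted p = 4.51e-06). Psmd5 differed by -0.83 ± 0.10 (adjusted p = 3.26e-05), Psma1 by -0.47 ± 0.11 (adjusted p = 0.00289) and Psmb7 by -0.45 ± 0.11 (adjusted p = 0.0039). At the other end, Psma7 and Psma4 had nearly the same level after both routes, at 0.00 ± 0.10 (adjusted p = 0.975) and -0.01 ± 0.11 (adjusted p = 0.931), and the groups overlapped. The values of Psmb5 and Psmb6 were -0.18 ± 0.11 (adjusted p = 0.195) and -0.14 ± 0.08 (adjusted p = 0.162). The core minus regulatory value was higher by 0.303 after ear than after dorsal imiquimod.

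The IL-23-ear libraries were below the imiquimod-dorsal ones for most genes as well. Here 34 of 36 genes were lower (30.0% of all genes), among them 13 of 15 core genes (core median -0.36) and 21 of 21 regulatory genes (median -0.78). Psma4 (-0.20 ± 0.12, adjusted p = 0.165) and Psma7 (-0.14 ± 0.11, adjusted p = 0.289) did not pass. Psmd9 differed by -1.46 ± 0.13 (adjusted p = 9.1e-07), Psmd13 by -0.87 ± 0.10 (adjusted p = 5.17e-06), Psmb7 by -0.91 ± 0.12 (adjusted p = 2.34e-05) and Psma1 by -0.86 ± 0.12 (adjusted p = 3.71e-05). Psmb5 and Psmb6 differed less, by -0.41 ± 0.12 (adjusted p = 0.00814) and -0.33 ± 0.08 (adjusted p = 0.00402), and Psmb5 no longer passed without IL-23-ear 1. The comparison shares the imiquimod-dorsal libraries with the preceding one, so their likeness is not independent.

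The ear treatments were compared last. From imiquimod to IL-23, 4 of 36 fell, near the share of all genes that fell (10.2%). Of these 4, 0 passed in every fit with 1 library left out. Psmb7 fell by 0.46 ± 0.12 on the log2 scale (adjusted p = 0.0202) and Psma1 by 0.38 ± 0.12 (adjusted p = 0.0403). Psmd8 fell by 0.42 ± 0.10 (adjusted p = 0.0109) and the ATPase gene Psmc1 by 0.40 ± 0.12 (adjusted p = 0.0379). The median was -0.19 in the core and -0.28 in the regulatory particle, and all 36 values were below 0. Psmd10 (-0.01 ± 0.07, adjusted p = 0.95), Psmd4 (-0.03 ± 0.08, adjusted p = 0.799) and Psma2, an alpha subunit (-0.11 ± 0.10, adjusted p = 0.455), were closest to 0. The values of Psmb5 and Psmb6 were -0.24 ± 0.12 (adjusted p = 0.175) and -0.19 ± 0.08 (adjusted p = 0.122). Again 1 library decided the count: without imiquimod-ear 5 it was 23, where 2404 of all 15113 genes fell. Over the other fits with 1 library left out it was 0 to 5. It was 0 without IL-23-ear 1, 1 without IL-23-ear 3, imiquimod-ear 1 or imiquimod-ear 3, and 2 without IL-23-ear 2, imiquimod-ear 4, control 4, imiquimod-dorsal 4 or imiquimod-dorsal 5. In the same comparison 20 of 20 cell cycle and 12 of 12 plasma cell genes were lower after IL-23. Of the 12 T cell genes 10 were higher, where 1070 of all 15159 genes rose. The IL-23-ear libraries summed to 1850 to 2260 CPM of plasma cell and 1530 to 1730 CPM of T cell genes, the imiquimod-ear libraries to 4130 to 6590 and 769 to 1340 CPM. Their part in the proteasome values was not tested.

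The interferon-induced counterparts moved the other way after dorsal imiquimod. Psmb8, which replaces Psmb5, was at 253, 294 and 305 CPM in the controls and at 194, 125, 160 and 198 CPM after dorsal imiquimod, or -0.75 ± 0.13 on the log2 scale (adjusted p = 0.000227). Psmb9, which replaces Psmb6, changed by -0.71 ± 0.19 (adjusted p = 0.00623) and Psmb10, which replaces Psmb7, by -0.72 ± 0.13 (adjusted p = 0.00035). Psme1 and Psme2, the alpha and beta subunits of the interferon-induced activator PA28, fell with them, by 0.69 ± 0.12 (adjusted p = 0.000276) and 0.64 ± 0.14 (adjusted p = 0.00164). For these 5 genes every imiquimod-dorsal library was below every control, as for 28.1% of all genes. After ear imiquimod only Psmb10 fell, by 0.42 ± 0.13 (adjusted p = 0.035). It no longer passed when control 4, control 5 or imiquimod-ear 1, 3 or 4 was left out. After IL-23 none passed, with values of 0.18 to 0.32. T cell markers fell in the same libraries, as given above; their part was not tested.

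The ratio of each pair within a library, in CPM per kb, set these changes side by side. Psmb8 to Psmb5 was 8.26, 9.55 and 7.54 in the controls, 3.81, 2.18, 2.86 and 3.68 after dorsal imiquimod, 5.54, 5.38, 5.22 and 6.61 after ear imiquimod and 8.22, 7.83 and 8.60 after IL-23. The imiquimod groups lay apart from each other and below the other groups, and the control and IL-23 groups overlapped. Psmb10 to Psmb7 ran from 0.962 to 1.25 in the controls, 0.246 to 0.384 after dorsal imiquimod, 0.439 to 0.732 after ear imiquimod and 1.09 to 1.18 after IL-23, in the same order. For Psmb9 to Psmb6 the ranges were 1.52 to 2.03, 0.521 to 0.997, 1.36 to 1.61 and 1.77 to 1.96, so that ear imiquimod overlapped the controls. On the log2 scale the dorsal differences from control were -1.46, -1.22 and -1.76 for Psmb8 to Psmb5, Psmb9 to Psmb6 and Psmb10 to Psmb7. In exact two-sided permutation tests each had p = 0.0571, the smallest that 3 against 4 libraries allow, and an adjusted p of 0.0735 over the 18 tests, so none could pass 0.05. The groups were separate in all 3 dorsal ratios, 4 of 4 libraries below the controls. The level of a ratio depends on the transcript length used: with the union of all annotated exons, a length chosen after seeing the data, the control geometric means were 4.42, 1.34 and 4.27 in place of 8.41, 1.78 and 1.08, while the differences between groups were the same by construction.

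**Figure D5:**
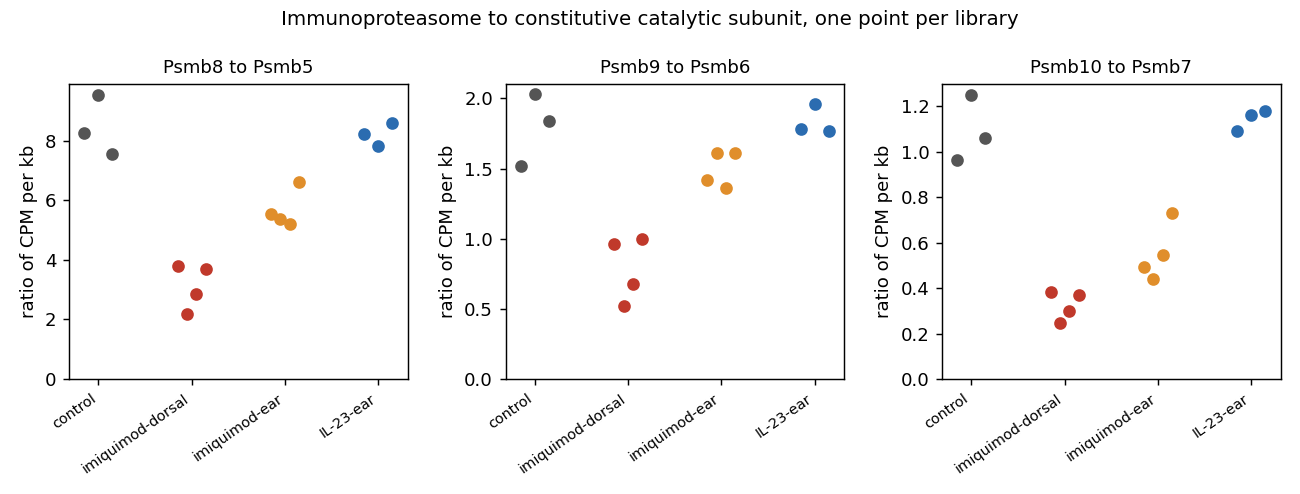
Ratio of CPM per kb of each interferon-induced catalytic gene to the constitutive gene it replaces, 1 point per library, with the vertical axis starting at 0. The imiquimod-dorsal points are the lowest in each panel (2.18 to 3.81 for Psmb8 to Psmb5). The imiquimod-ear points come next, but overlap the control points for Psmb9 to Psmb6. The control and IL-23-ear points overlap.

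Other genes of the pathway, chosen by their role, were read in the same fit. There 32.3% of all 15159 genes rose after dorsal imiquimod and 4181 fell. After dorsal imiquimod the activators Psme3, a nuclear cap, and Psme4, a large single-chain cap, rose by 1.22 ± 0.12 (adjusted p = 3.27e-06) and 0.85 ± 0.09 (adjusted p = 3.96e-06), and the inhibitor Psmf1 by 1.65 ± 0.14 (adjusted p = 1e-06). Psmf1 was at 37.7, 42.4 and 47.9 CPM in the controls and at 133, 159, 125 and 120 CPM, with no overlap. Of the 3, Psme4 alone passed after ear imiquimod, at 0.29 ± 0.09 (adjusted p = 0.0299), and this call was lost without any 1 of 9 libraries, each control among them. The difference between the routes was itself below 0 for all 3, from -1.58 to -0.56. The regulatory subunits with names outside the Psmd series, the ubiquitin receptor Adrm1 and the small Sem1, rose with the set, by 0.76 ± 0.10 (adjusted p = 2e-05) and 0.66 ± 0.09 (adjusted p = 2.44e-05).

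Core assembly chaperones rose in 4 of 5 cases after dorsal imiquimod, with a median of 0.59. Pomp, the maturation factor that is the first substrate of the finished core, changed by 0.35 ± 0.11 (adjusted p = 0.0125), Psmg1 by 0.67 ± 0.15 (adjusted p = 0.0015) and Psmg3 by 1.06 ± 0.16 (adjusted p = 7.07e-05), and Psmg4 (0.08 ± 0.09, adjusted p = 0.435) did not pass. Pomp no longer passed without control 2, where its value was 0.22, or without control 4. Of 6 deubiquitinases, ligases and other factors bound to the proteasome, 6 rose, with a median of 0.86, among them the deubiquitinase Usp14 by 1.18 ± 0.11 (adjusted p = 1.96e-06). Shuttle receptors, which carry ubiquitin-tagged proteins to the cap, were mixed: 4 of 6 rose and 1 fell. Of the segregase Vcp and its cofactors 4 of 6 rose, with a median of 0.49, and of the ubiquitin genes and activating enzymes 2 of 6, near the share of all genes, with a median of 0.19; reads of Rps27a in that list can be shared with its pseudogenes.

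Among 10 genes known to regulate proteasome expression or placement, 6 rose and 2 fell after dorsal imiquimod. Nfe2l1, the factor known to drive proteasome genes when the proteasome is inhibited, was at 197, 204 and 213 CPM in the controls and 184, 156, 167 and 169 CPM after dorsal imiquimod, which gave -0.28 ± 0.07 (adjusted p = 0.00266). Nfe2l2, its relative in the response to oxidative stress, changed by 0.44 ± 0.09 (adjusted p = 0.000725), and by 0.28 without control 2. RNA levels do not report the processing by which Nfe2l1 protein becomes active.

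Subunits of other large complexes gave a scale for the size of the change. After dorsal imiquimod the median log2 fold change was 0.48 over 9 subunits of the COP9 signalosome, a complex built like the proteasome lid (8 rose), 0.54 over 13 subunits of the translation factor eIF3, which shares that architecture (13 rose), and 0.57 over 8 subunits of the folding chaperonin TRiC (8 rose). Of all genes, 32.3% rose in this comparison. The core median of 0.54 lay in the range of these complexes and the regulatory median of 0.86 above it. After ear imiquimod the medians were 0.34 (6 of 9 rose), 0.30 (8 of 13) and 0.37 (2 of 8), where 14.3% of all genes rose. The core and regulatory medians were 0.35 and 0.37. These calls come from the fit in which the count of proteasome genes rested on single libraries, and they are not given with a library left out. After IL-23 the medians of the 3 complexes were 0.05, 0.11 and 0.26, and none of their genes passed.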

How the data were processed

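Poly(A) RNA of 14 spleens was sequenced from non-stranded libraries in pairs of 150-base reads, all in 1 batch, per the labels' protocols. The authors deposited 1 table of raw read counts per gene. Per the submitters' processing notes, the build was GRCm39 and the tools included featureCounts 2.0.3, HISAT2 2.2.1 and fastp 0.23.2, and also DESeq2 1.38.3 and StringTie 2.2.1. The annotation, and how reads with several matches were counted, is not given in the sources used here, so reads shared with pseudogenes or with overlapping genes on the other strand cannot be told apart. Of 22740 entries, 624 loci without a gene, with 0.484% to 0.674% of counts, were left out.

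Counts were tested with edgeR 4.0.16 (R 4.3.3; quasi-likelihood, TMM scaling, minimum count 10 in filterByExpr, prior count 2 for log2 CPM) in 1 fit of all 14 libraries with 10 residual degrees of freedom, and every adjusted p of a gene is from this test, adjusted after Benjamini and Hochberg over 15159 genes. The script was tested on simulated data. The 18 replicate pairs differed by more than sampling noise (chi-square per degree of freedom 24.1 to 141). Transcript lengths and positions are those of the canonical transcript in GENCODE mouse release 39. Counting limits cover counting error only. Alternatives were DESeq2 1.42.0, limma-voom 3.58.1, other scaling, no filter, and leaving out each library.

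Any member could be named. In each comparison the catalytic genes and those closest to 0 were named. So were the 2 core and 2 regulatory genes of smallest adjusted p where genes passed. Library values were given for some of these genes and comparisons only. Fixed partners were named whatever their result, with at most 2 genes of each other list; Psmf1 and Psmg4, and the library values of other members, were added after their values were seen. The members, lists and tests were chosen with earlier results of these data known. The values of 1 gene of a partner list are not reported here.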

Additional observations from a re-analysis of the deposited data

Results flagged for a closer look

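Among 84 sets of 4 libraries (each gene and its closest partners within an imiquimod group), 2 held 1 library far from the other 3 by Dixon's criterion, where chance gives about 1 in 20. Psmc6, an ATPase gene, was at 85.3 CPM in imiquimod-ear 5 and at 107 to 110 CPM in the other 3 libraries of that group, the library that was also low for most of the other genes. Psmb11 was at 0.056 CPM in imiquimod-ear 4, which is 2 counts, and at 0.0 in the other 3, all under the limit that a count of 0 allows.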

How the results depend on the processing

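The counts of genes that passed after dorsal imiquimod against control (32 to 36 with 1 library left out), ear against dorsal imiquimod (20 to 25) and IL-23 against dorsal imiquimod (28 to 34) stayed within 1.5 times of the values given under every alternative run, and IL-23 against control stayed at 0; over all genes that comparison gave 8 calls in edgeR, 0 with other size factors or without the filter, and 132 in DESeq2. Ear imiquimod against control ranged from 2 to 33 and IL-23 against ear imiquimod from 0 to 23 with 1 library left out. With only the groups compared in the fit they were 2 and 0. Over all genes with 1 library left out, 698 to 2723 rose in the former comparison and 631 to 2404 fell in the latter. Replicate numbers are shared between groups but did not pair the mice: over 13 same-numbered pairs the correlation of deviations ran from -0.241 to 0.183, with 1 over 0.1. With the replicate block the counts were 34, 0, 0, 21, 1 and 32 for dorsal, ear and IL-23 against control, ear against dorsal, IL-23 against ear and IL-23 against dorsal.

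The core minus regulatory differences ran, with 1 library left out, from -0.336 to -0.307 (dorsal against control), -0.041 to -0.004 (ear against control), 0.005 to 0.034 (IL-23 against control), 0.282 to 0.318 (ear against dorsal), 0.023 to 0.059 (IL-23 against ear) and 0.329 to 0.353 (IL-23 against dorsal). As a median over members they were -0.243, 0.222 and 0.281 for dorsal against control, ear against dorsal and IL-23 against dorsal. With assembled-particle subunits only they were -0.233, 0.02, 0.076, 0.253 and 0.308, in the order dorsal, ear and IL-23 against control, ear against dorsal and IL-23 against dorsal. Of 81 single-gene results, 0 changed direction under any alternative; DESeq2 and limma-voom kept 81 of 81 on their side of the threshold, only the groups compared 65 and the replicate block 58. The cause was not tested. Depth does not limit the 31 subunits but does limit Psma8 and Psmb11.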
